A study of Mus musculus with 12 samples.

Results

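Skin that had received CD36highCD90+ fibroblasts and was sampled at 20 weeks (treated skin) was compared with fibrotic skin sampled at 6 weeks, across all genes. The comparison uses 6 of the 12 libraries of the series, 3 in each group. It covers the 13189 of 23359 genes in the deposited table that had at least 1 FPKM in at least 3 of these 6 libraries. FPKM counts the sequenced fragments of a gene per length of transcript and for a fixed number mapped. All mice were C3H/HeJ, an inbred strain with a defective Tlr4, the endotoxin receptor, and the skin was macrodissected as whole tissue. Untreated fibrotic skin at 20 weeks and normal skin, which has no time point, gave 3 libraries each and are used here for context only. The labels tag the treated samples with the transplanted cell rather than with a tissue. They do not state by what means the skin became fibrotic, when and in what number cells were given, or whether each library stands for its own mouse. The p-values therefore measure only the spread between these libraries, which may be technical. Treated and 6-week skin differ in time and in treatment together, and these cannot be told apart.

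Fibrosis is the build-up of collagen-rich matrix by fibroblasts, usually alongside inflammation. Injured or irritated epidermis switches on stress keratins, small proline-rich proteins, late cornified envelope proteins and antimicrobial peptides, while fibrotic skin can lose its fat layer, hair follicles and sebaceous glands. CD36 takes up long-chain fatty acids, CD90 is the product of Thy1 and marks fibroblasts among other cells, and the title of the series names fatty acid oxidation and glycolysis as regulators of the skin matrix.

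All 8 defining markers of skin were present in every one of the 6 libraries. Krt5, the keratin of basal keratinocytes, ranged from 2583 to 3501 FPKM in treated and from 3162 to 3448 FPKM in 6-week skin. Col1a1, a chain of type I collagen, ranged from 51.2 to 149 FPKM in treated and from 90.2 to 151 FPKM in 6-week skin. One treated library stood apart. Across the genes tested, which are not independent replicates, the log2(FPKM + 1) values of treated replicate 1 correlated at r = 0.949 to 0.954 with the 6-week libraries, but at 0.878 and 0.922 with the other treated libraries. Its correlation with untreated 20-week skin was similar to that with 6-week skin, at 0.929 to 0.962. Treated replicates 2 and 3 correlated at 0.946 with each other, and the 6-week libraries at 0.964 to 0.981 among themselves. The median SD of a gene within its group was 0.234 log2 units in treated and 0.142 log2 units in 6-week skin. For many lists, counts or medians are therefore given without treated replicate 1 as well, from the 6-library test. Where they are not given, a list may still change without that library. It was picked out from these same values, as the treated library nearest the 6-week libraries. Leaving it out tends to widen differences and narrow the spread, so calls made that way are no independent support.

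The 3 treated libraries against the 3 libraries of 6 weeks gave 1 gene with an adjusted p under 0.05, which is 0.00758% of the genes tested (limma, Benjamini-Hochberg over all 13189 genes). That gene was Snora41, a small nucleolar RNA whose length makes an FPKM value unreliable. It was listed at 0 in all 3 treated and all 3 normal libraries and stood at 70.7 to 83.1 FPKM at 6 weeks. At an unadjusted p under 0.05 there were 3694 genes, 1639 higher and 2055 lower in treated skin, or 28% of those tested. Between the groups as they stand, 1999 genes (15.2%) were higher in every treated library than in any 6-week library, and 2589 genes (19.6%) were lower. Below, such genes are said to be without overlap, and list counts are to be read against these shares of all genes. Some genes, such as Mmp12 and Ereg, belong to several lists, so the counts of different lists are not separate observations.

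How many genes were called depended on how the spread was estimated. A fit of all 12 libraries, which shares 1 estimate of the spread among the 4 groups, called 998 genes higher (7.57%) and 1220 lower (9.25%) in treated than in 6-week skin, and 517 of the 2218 changed at least 2-fold. The same 6 libraries without treated replicate 1 gave 1853 genes called higher (14%) and 2172 called lower (16.5%). Leaving out any other library gave 1 called gene each time. The fit of all 12 libraries assumes that treated libraries vary like the other groups, whereas their measured spread was wider. The median SD of a gene was 0.234 log2 units in treated skin and 0.142 to 0.146 log2 units in the other groups. The shared estimate can therefore understate the spread of treated libraries. The 6-library test was the main test, and the gene lists were turned to the fit of all 12 libraries after it had called 1 gene. In the text below, "called" refers to the fit of all 12 libraries unless stated. Its list counts are to be read against 7.57% higher and 9.25% lower. Fold changes are log2 differences of FPKM + 1, treated minus 6-week, with the SE of the 6-library fit. They understate the change of genes with low FPKM. None of these fold changes other than that of Snora41 passed the 6-library test, in which the smallest adjusted p after it was 0.1. No single gene was put to an exact permutation test, whose smallest p for groups of 3 is 0.1.

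**Figure D1:**
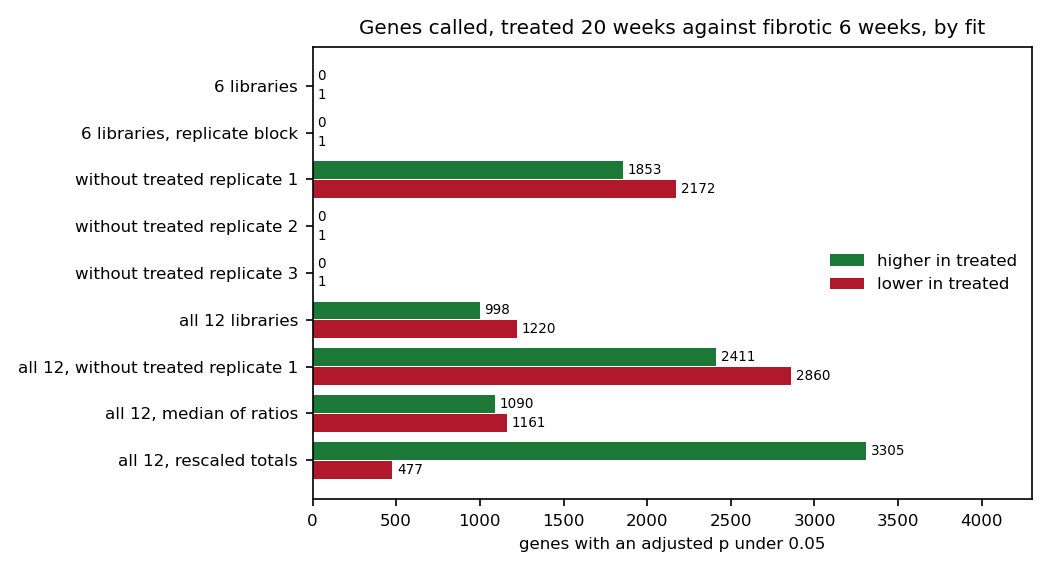
Number of genes with an adjusted p under 0.05 (x axis, from 0) in treated 20-week against fibrotic 6-week skin under 9 fits (y axis), green for higher and red for lower in treated skin. The 6-library fits shown, with and without a replicate block, called 1 gene, the fit without treated replicate 1 called 4025, and the fit of all 12 libraries called 2218; rescaled totals changed the split to 3305 higher and 477 lower.

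The split between higher and lower genes depended on the scaling. Of the genes without overlap, 43.6% were higher in treated skin with FPKM as deposited and 49.2% after scaling by the median of ratios. After rescaling all libraries to equal totals without muscle, hair, cornified envelope and short RNA genes, 4041 genes were higher and 838 lower without overlap, so 82.8% were higher. That rescaling moved the median fold change of all genes from -0.02 to 0.26, a shift of 0.28. List medians are therefore best read against the median of all genes, and a change of sign under it is given beside the list. Among lists described by counts only, the medians turned from below to above 0 for interferon-stimulated genes (to 0.26), cholesterol synthesis (to 0.19), p53 targets (to 0.14), the EGF family (to 0.02), B and plasma cells (to 0.31) and MHC class II (to 0.21).

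The lowest median of the 43 gene lists belonged to the epidermal stress program. Among 32 tested genes of wound and hyperproliferative keratinocytes, 20 were lower in treated skin without overlap and 0 were higher, against 19.6% and 15.2% of all genes. Of these 32 genes, 19 were called lower and 0 higher. The median fold change of the list was -3.11, and -3.96 without treated replicate 1, against -0.02 for all genes in both fits. The genes of the list held 4.62%, 1.67% and 0.628% of the summed FPKM in treated replicates 1, 2 and 3, against 8.02%, 11.1% and 7.54% at 6 weeks. The treated libraries were thus each below every 6-week library, and replicate 1 was nearest to them. In untreated fibrotic skin of 20 weeks the list held 5.56% to 6.90%, and in normal skin 0.388% to 0.590%. As these are bulk samples, fewer cells of a type and less RNA per cell cannot be told apart.

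Krt6b, a keratin of wounded epidermis, had 1497, 87.9 and 1.88 FPKM in treated skin, against 2610, 4376 and 1808 FPKM at 6 weeks. Its groups did not overlap, but the treated libraries spanned nearly their whole distance to normal skin, where it had 1.02 to 3.11 FPKM. Its fold change was -5.24 ± 2.13 and it missed the call (adjusted p = 0.0556 in limma with all 12 libraries). Sprr2k, a small proline-rich protein of the cell envelope, had 2.73, 0.753 and 0.169 FPKM in treated skin, against 58.1, 116 and 6.6 FPKM at 6 weeks, and was called lower (-4.25 ± 1.04). The epithelial alarm cytokine Il1f6, also known as IL-36 alpha, had 70.2, 22.0 and 2.82 FPKM in treated skin, against 183, 274 and 150 FPKM at 6 weeks (-3.42 ± 1.02, called lower). Its relatives Il1f8 and Il1f9 were called lower as well, at -2.61 ± 0.87 and -2.17 ± 0.77. Ereg, a ligand of the epidermal growth factor receptor, had 26.1, 9.85 and 4.56 FPKM in treated skin, against 42.4, 41.2 and 40.7 FPKM at 6 weeks. All 3 treated libraries lay below the narrow range of the 6-week libraries, and it was called lower (-1.85 ± 0.54). Gjb6, a gap junction protein, was called lower too (-2.53 ± 0.60). Krt17, expressed in hair follicles as well as in wounds, was the member of the list with a positive fold change; it had 1019, 357 and 945 FPKM in treated skin, against 545, 461 and 242 FPKM at 6 weeks, and the groups overlapped.

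Cornified envelope genes, which encode the proteins that seal dead keratinocytes at the skin surface, followed the same direction. Of 46 tested, 21 were lower (45.7%) and 1 higher (2.17%) without overlap, against 19.6% and 15.2% of all genes. The fit of all 12 libraries called 17 lower and 1 higher. Their median was -1.27, and -1.74 without treated replicate 1, where 29 were called lower and 1 higher. Casp14, the protease of terminal keratinocyte differentiation, had 308, 142 and 47.9 FPKM in treated skin, against 869, 1297 and 1125 FPKM at 6 weeks (-3.07 ± 0.65, called lower). Rptn, an envelope-associated matrix protein, had 323, 98.9 and 4.35 FPKM in treated skin, against 1081, 1542 and 643 FPKM at 6 weeks (-4.20 ± 1.46, called lower). In both genes the order of the treated libraries was replicate 1, then 2, then 3. Lor, which encodes loricrin, had a smaller fold change, with 2462, 1547 and 743 FPKM in treated skin against 3848, 7176 and 4757 FPKM at 6 weeks (-1.84 ± 0.48, called lower). The exception was Alox12e, an epidermal lipoxygenase, with 346, 159 and 135 FPKM in treated skin against 28.6, 22.2 and 71.9 FPKM at 6 weeks (2.41 ± 0.54, called higher). It was also high in untreated 20-week skin, with 161, 196 and 144 FPKM. Of 25 counted basal and suprabasal genes, 2 were higher and 1 lower without overlap, 1 was called higher and 3 lower, and the median of -0.09 changed sign to 0.24 under the rescaling. Without treated replicate 1 the median was -0.20, with 4 called higher and 9 lower. The main suprabasal keratins Krt1 and Krt10 stayed out of these counts because each was listed at 0 in some libraries of untreated 20-week skin. Krt1 had 7509, 4547 and 956 FPKM in treated skin, against 12604, 16674 and 14265 FPKM at 6 weeks. Krt10 had 8188, 5303 and 2052 FPKM in treated skin, against 10308, 15228 and 12598 FPKM at 6 weeks. Both were lower in every treated library than in any 6-week library.

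The late cornified envelope group 3 genes were lower as a family. All 6 tested members, Lce3a to Lce3f, were lower without overlap and called lower, with fold changes from -5.19 to -3.75. They are near-identical neighbours, so reads of 1 copy may have been counted for another, and they are not independent of each other. Lce3e had 37.1, 4.96 and 0.158 FPKM in treated skin, against 223, 400 and 142 FPKM at 6 weeks (-5.19 ± 1.23, adjusted p = 0.0247 in limma with all 12 libraries). Without treated replicate 1 its fold change was -6.48. Lce3b had 25.7, 1.75 and 0 FPKM in treated skin, against 206, 266 and 49.2 FPKM at 6 weeks, and Lce3f had 10.6, 0.923 and 0 FPKM, against 46.0, 50.6 and 21.5 FPKM. Each treated library was below each 6-week library, and the normal libraries were at or near 0 in all of these genes. The promoters of 3 of them are shown because their genes were called lower together and because they share a stretch of sequence. They come from RefSeq (GRCm38.p6), lie on the plus strand of chromosome 3, and run from 250 bases before to 50 bases after the annotated start. The capitals mark GTTGTGAAAGCA, the run of 12 letters that all 3 hold.
Lce3b, chr3:92932729-92933028: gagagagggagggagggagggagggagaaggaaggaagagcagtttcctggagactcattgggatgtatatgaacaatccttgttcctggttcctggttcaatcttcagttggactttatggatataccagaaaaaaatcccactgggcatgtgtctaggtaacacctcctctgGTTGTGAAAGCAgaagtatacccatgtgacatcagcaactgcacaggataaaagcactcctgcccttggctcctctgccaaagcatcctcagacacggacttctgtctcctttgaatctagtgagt
Lce3e, chr3:92966811-92967110: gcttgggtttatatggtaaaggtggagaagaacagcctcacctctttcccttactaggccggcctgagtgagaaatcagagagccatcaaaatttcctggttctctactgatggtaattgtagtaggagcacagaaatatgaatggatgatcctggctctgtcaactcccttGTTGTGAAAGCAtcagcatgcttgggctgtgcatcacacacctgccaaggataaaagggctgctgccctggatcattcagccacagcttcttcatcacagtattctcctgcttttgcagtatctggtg
Lce3f, chr3:92991967-92992266: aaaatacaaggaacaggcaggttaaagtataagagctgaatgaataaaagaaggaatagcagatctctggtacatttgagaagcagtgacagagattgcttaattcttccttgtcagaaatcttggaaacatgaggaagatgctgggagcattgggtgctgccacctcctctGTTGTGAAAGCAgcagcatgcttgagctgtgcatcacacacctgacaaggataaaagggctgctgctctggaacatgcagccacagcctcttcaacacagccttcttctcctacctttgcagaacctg
The shared run starts 76 bases before the start site in Lce3b and 78 bases before it in Lce3e and Lce3f. With both strands searched, it occurs in 4 of 32851 promoters of this length (0.0122%), those of Lce3b, Lce3d, Lce3e and Lce3f. Lce3a and Lce3c are not among them, although they were called lower as well. The run was picked as the longest one common to the 3 promoters shown, so their sharing of it is no test. This describes the letters of the windows and not a binding site.

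**Figure D2:**
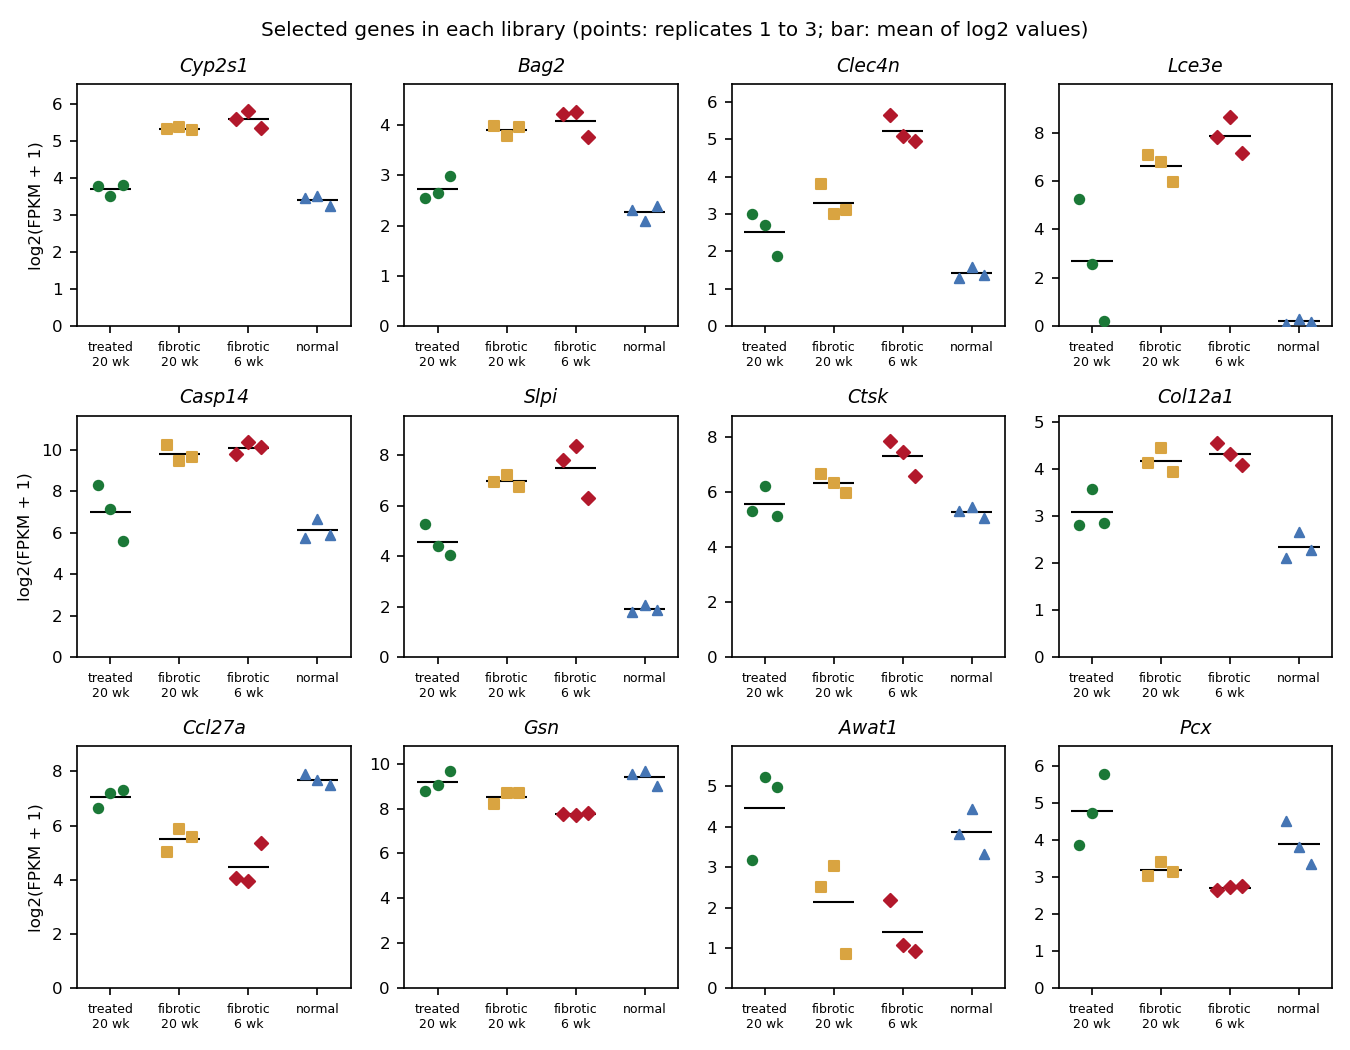
log2(FPKM + 1) (y axis, from 0) of 12 genes in each library, with groups from left to right treated 20 weeks, fibrotic 20 weeks, fibrotic 6 weeks and normal; points are replicates 1 to 3 and bars the mean of the log2 values. In all 12 genes the treated libraries do not overlap the 6-week libraries, lower in the first 8 (such as Cyp2s1 and Lce3e) and higher in Ccl27a, Gsn, Awat1 and Pcx.

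Many myeloid genes were lower in treated skin. Of 30 tested macrophage genes, 15 were lower (50%) and 0 higher without overlap, against 19.6% and 15.2% of all genes. Of the 30, 14 were called lower and 0 higher, and the median was -1.18, or -1.34 without treated replicate 1. Clec4n, which encodes the fungal receptor Dectin-2 of myeloid cells, had 6.99, 5.51 and 2.70 FPKM in treated skin, against 49.3, 32.9 and 29.7 FPKM at 6 weeks (-2.70 ± 0.33). Its adjusted p was 0.112 in the 6-library fit and 0.0113 with all 12 libraries. Arg1, an arginine-degrading enzyme of macrophages that keratinocytes also make, had 36.7, 16.4 and 13.2 FPKM in treated skin, against 72.9, 127 and 77.1 FPKM at 6 weeks (-2.10 ± 0.41, called lower). Ccr2, the chemokine receptor of monocytes that enter tissue, had 6.32, 3.75 and 3.19 FPKM in treated skin, against 15.7, 11.2 and 8.17 FPKM at 6 weeks, and was called lower (-1.23 ± 0.30). Trem2, a lipid receptor of macrophages, was called lower at -1.14 ± 0.27 and Lyz2, lysozyme of myeloid cells, at -1.53 ± 0.37. Csf1r, the growth factor receptor that defines the lineage, had 25.6, 20.6 and 18.9 FPKM in treated skin, against 31.3, 29.5 and 28.6 FPKM at 6 weeks, without overlap but not called (-0.45 ± 0.14). Complement genes overlapped, C1qa having 41.8, 27.5 and 40.1 FPKM in treated skin and 84.0, 44.6 and 28.1 FPKM at 6 weeks. The list therefore held called genes and overlapping ones. Its summed FPKM overlapped too, at 0.109% to 0.151% of the total in treated and 0.126% to 0.268% in 6-week skin, because the sum includes Lpl, a lipase that adipocytes also make, with 55.6, 151 and 324 FPKM in treated and 64.9, 68.1 and 47.8 FPKM in 6-week skin.

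Neutrophil and acute phase genes pointed the same way with wide spread. Of 9 tested neutrophil genes, 3 were lower without overlap (33.3%, against 19.6% of all genes), 4 were called lower and 0 higher. S100a8, a calcium-binding alarm protein of neutrophils and of stressed keratinocytes, had 724, 22.4 and 9.58 FPKM in treated skin, against 1804, 2346 and 833 FPKM at 6 weeks (-4.75 ± 1.56, called lower). Without treated replicate 1 its fold change was -6.6. Of 20 acute phase and antimicrobial genes, 6 were lower (30%) and 1 higher (5%) without overlap, with 5 called lower and 1 higher. Their median was -0.49, and -0.91 without treated replicate 1, where 6 were called lower and 1 higher. Saa3, an acute phase protein, had 8.56, 0.702 and 3.43 FPKM in treated skin, against 464, 435 and 12.2 FPKM at 6 weeks (-5.06 ± 1.49, called lower). The third 6-week library lay close to the treated ones, and untreated skin of 20 weeks, at 22.5, 2.16 and 1.24 FPKM, was also low. Slpi, an inhibitor of neutrophil elastase, had 38, 20.2 and 15.4 FPKM in treated skin, against 220, 328 and 78.6 FPKM at 6 weeks (-2.91 ± 0.58, called lower). In this gene untreated 20-week skin stayed high, at 120, 147 and 105 FPKM, and treated skin was called lower than it (-2.38, adjusted p = 0.0171 in limma with all 12 libraries). Defb6, a beta-defensin of healthy skin, was the member without overlap that was higher in treated skin, with 956, 1000.4 and 996 FPKM against 423, 307 and 406 FPKM at 6 weeks (1.39 ± 0.17, called higher).

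Among 38 tested cytokines and chemokines, 4 were higher and 6 lower without overlap, and 3 were called higher and 6 lower. Their median of -0.22 became 0.01 under the rescaling and -1.19 without treated replicate 1, where 2 were called higher and 16 lower. Cxcl2, an attractant of neutrophils, had 1.24, 0.115 and 0 FPKM in treated skin, against 17.4, 24.3 and 2.74 FPKM at 6 weeks (-3.15 ± 0.76, called lower). Il18, a cytokine stored by keratinocytes, had 105, 76.7 and 33.4 FPKM in treated skin, against 170, 251 and 181 FPKM at 6 weeks (-1.59 ± 0.43, called lower). Both sets were apart, and treated replicate 1 was the highest treated library in each. Ccl27a, the chemokine by which resting keratinocytes attract skin-homing T cells, went the other way, with 99.1, 145 and 160 FPKM in treated skin against 15.9, 14.6 and 40.0 FPKM at 6 weeks (2.59 ± 0.41, adjusted p = 0.0163 in limma with all 12 libraries). Untreated 20-week skin had 32.0, 58.2 and 47.5 FPKM of Ccl27a and normal skin 181 to 240 FPKM, and treated skin was called higher than untreated skin of the same age (1.55, adjusted p = 0.0221 in the same fit). Cxcl14, another chemokine of resting epidermis, was called higher as well (0.85 ± 0.24).

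Interferon-stimulated genes separated treated replicate 1 from all other libraries rather than the groups. Of 38 tested, 1 was higher and 0 lower without overlap and 0 were called. In the 6-library test without replicate 1, 1 was called higher and 18 lower, and the median went to -0.81. Isg15, a ubiquitin-like protein that interferon induces, had 304 FPKM in treated replicate 1 but 21.2 and 20.7 FPKM in the other treated libraries, against 73.1, 33.9 and 33.9 FPKM at 6 weeks. Cxcl10, an interferon-induced attractant of T cells, had 156, 7.81 and 3.65 FPKM in treated skin, against 14.7, 15.1 and 24.9 FPKM at 6 weeks. No statement on interferon response between the groups holds with and without this library.

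**Figure D3:**
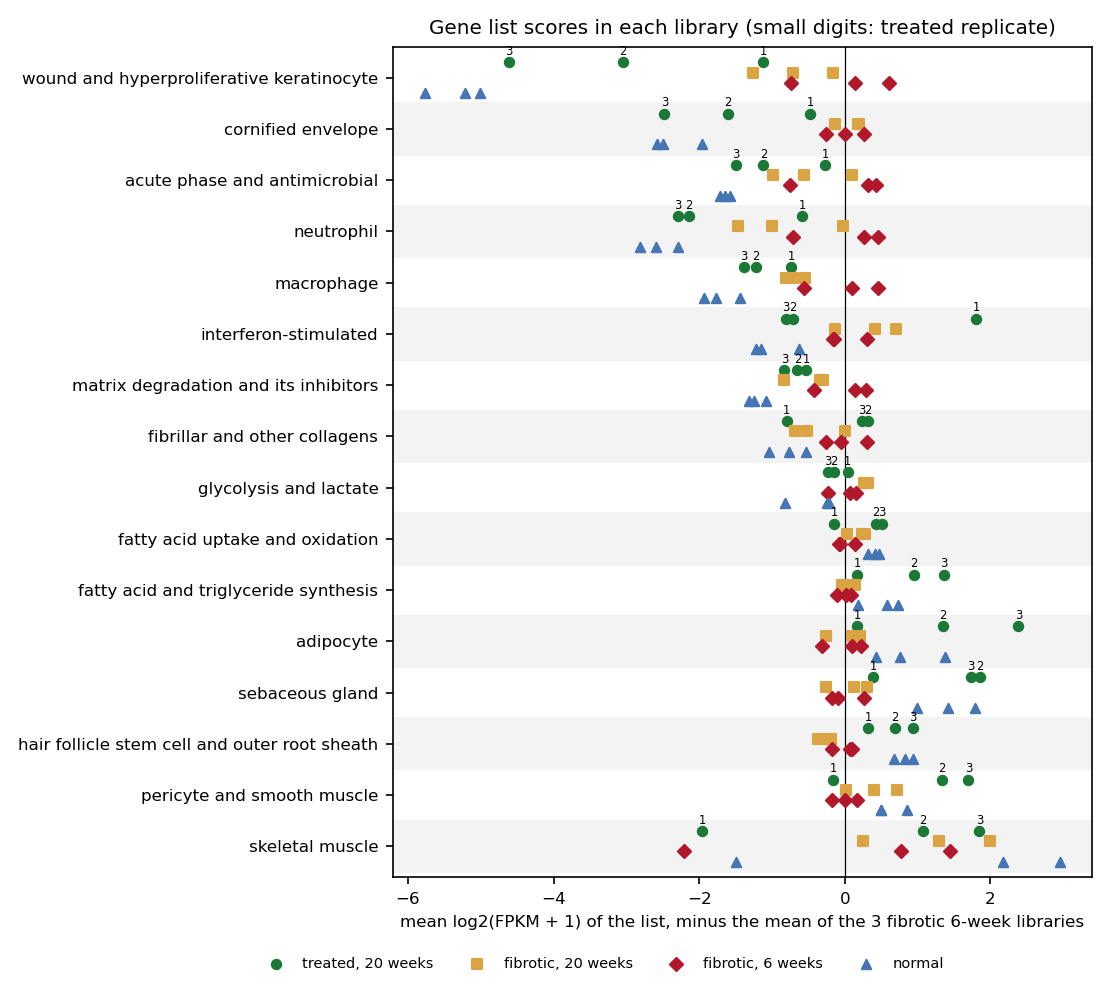
Score of 16 gene lists (y axis) in each library, the mean log2(FPKM + 1) of the tested members minus the mean of the 3 fibrotic 6-week libraries (x axis, log2 units); within each list treated is at the top, then fibrotic 20 weeks, fibrotic 6 weeks and normal, and small digits give the treated replicate. Treated libraries lie below all 6-week libraries for wound keratinocyte, cornified envelope and macrophage genes and above them for sebaceous and follicle stem cell genes, while replicate 1 stands alone in the interferon list.

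Of 21 tested collagens, 0 were higher and 2 lower without overlap, 1 was called lower and 0 higher, and the median of -0.11 became 0.20 both under the rescaling and without treated replicate 1. Without that library 6 were called higher and 1 lower, or 28.6% and 4.76% of them, against 14% and 16.5% of all genes. Col1a1 had 51.2, 149 and 112 FPKM in treated skin, against 151, 90.2 and 101 FPKM at 6 weeks. These ranges overlapped, and the fold change of -0.22 ± 0.42 became 0.10 under the rescaling and 0.22 without treated replicate 1. Normal skin lay well below both, at 17.2 to 36.8 FPKM. Col3a1, the collagen of young scar, had 96.8, 195 and 165 FPKM in treated skin, against 389, 235 and 199 FPKM at 6 weeks, and was without overlap but not called (-0.84 ± 0.35, adjusted p = 0.183 in limma). The upper treated value and the lowest 6-week value nearly touched. Col12a1, which binds collagen fibrils at their surface, had 6.02, 10.9 and 6.23 FPKM in treated skin, against 22.3, 19.1 and 16.0 FPKM at 6 weeks, and was the collagen called lower (-1.24 ± 0.24). It was also called lower than in untreated skin of 20 weeks, which had 16.3, 20.7 and 14.4 FPKM (-1.09, adjusted p = 0.0189 in limma with all 12 libraries).

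Fn1, which encodes fibronectin, had 27.7, 26.6 and 36.5 FPKM in treated skin, against 73.8, 51.0 and 25.1 FPKM at 6 weeks, and the groups overlapped (-0.59 ± 0.39). Of 35 tested glycoproteins, 3 were higher and 3 lower without overlap, with 2 called in each direction and a median of 0.04. Without treated replicate 1 the median was 0.26, with 5 called higher and 3 lower. Ltbp4, which anchors latent TGF-beta to elastic fibres, had 12.8, 31.7 and 66.0 FPKM in treated skin, against 9.68, 6.06 and 7.4 FPKM at 6 weeks (1.86 ± 0.56, called higher). Wisp1, a matrix signalling protein, had 0.476, 1.22 and 0.625 FPKM in treated skin, against 4.02, 3.15 and 2.42 FPKM at 6 weeks (-1.25 ± 0.23, called lower). The list thus held called members in both directions. Of 24 genes of collagen folding and crosslinking, 2 were higher and 3 lower without overlap, and 1 was called higher and 3 lower. The 25 proteoglycan and hyaluronan genes had 3 higher and 1 lower without overlap and 2 called higher, or 8 called higher and 2 lower without treated replicate 1. The medians of these lists, -0.05 and -0.20, changed sign under the rescaling. Without treated replicate 1 they were 0.09 and -0.09.

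Of 33 tested genes that degrade matrix or inhibit its degradation, 8 were lower and 1 higher without overlap, or 24.2% and 3.03%, against 19.6% and 15.2% of all genes. The fit of all 12 libraries called 8 lower and 0 higher, without treated replicate 1 there were 11 lower and 3 higher, and the median of -0.59 stayed below 0 under the rescaling, at -0.27. Ctsk, the lysosomal cysteine protease that cleaves collagen, had 39.0, 73.8 and 33.7 FPKM in treated skin, against 227, 175 and 94.8 FPKM at 6 weeks (-1.74 ± 0.42, called lower). Mmp12, the elastase of macrophages, had 22.8, 6.98 and 1.05 FPKM in treated skin, against 51.4, 42.9 and 50.9 FPKM at 6 weeks (-2.75 ± 0.83, called lower). Both proteases were lower in all 3 treated libraries than in any 6-week library. Mmp2, the gelatinase of fibroblasts, had 40.0, 65.0 and 55.5 FPKM in treated skin, against 120, 95.7 and 44.4 FPKM at 6 weeks, and overlapped (-0.60 ± 0.39).

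Fibroblast genes were called in both directions. Of 24 tested, 4 were higher (16.7%) and 0 lower without overlap, against 15.2% and 19.6% of all genes. The fit of all 12 libraries called 3 higher and 1 lower, against 7.57% and 9.25% of all genes. The median was -0.03, which the rescaling turned to 0.25. Without treated replicate 1 it was 0.05, with 4 called higher and 3 lower. Thy1 had 80.5, 103 and 63.1 FPKM in treated skin, against 95.2, 79.2 and 52.5 FPKM at 6 weeks, overlapping ranges with a fold change of 0.13 ± 0.28. Gsn, the actin-severing protein gelsolin, had 434, 521 and 822 FPKM in treated skin, against 216, 210 and 219 FPKM at 6 weeks (1.41 ± 0.25, called higher). Of 29 TGF-beta and myofibroblast genes, 4 were higher and 1 lower without overlap, and 5 were called higher and 0 lower, or 9 and 2 without treated replicate 1. Those called by the 12-library fit were the TGF-beta and BMP inhibitor Smad6 and 4 contractile genes that smooth muscle shares with myofibroblasts. Acta2, smooth muscle actin, had 24.6, 102 and 123 FPKM in treated skin, against 25.8, 19.2 and 14.6 FPKM at 6 weeks; treated replicate 1 was inside the 6-week range (1.76 ± 0.61, and 2.47 without that library). Of 13 pericyte and smooth muscle markers, 4 were higher and 0 lower without overlap and 5 were called higher, or 9 without treated replicate 1. Their summed FPKM was 0.0191%, 0.0769% and 0.105% of the total in treated replicates 1, 2 and 3 and 0.0158% to 0.0267% at 6 weeks, so these markers were highest in the libraries in which Acta2 was highest. The part of smooth muscle in that result was not tested.

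Most fatty acid genes that were called were higher, while the summed FPKM of their list, mostly Fabp5 at 6 weeks, was lower. Of 47 tested genes of fatty acid uptake and oxidation, 10 were higher (21.3%) and 4 lower (8.51%) without overlap, against 15.2% and 19.6% of all genes. The fit of all 12 libraries called 8 higher and 1 lower, against 7.57% and 9.25% of all genes. The median was 0.26, and 0.47 without treated replicate 1, where 19 were called higher and 1 lower. It stayed positive relative to all genes under the rescaling. The summed FPKM of the list was lower in every treated library. It was 1.15%, 1.16% and 1.23% of the total in treated replicates 1, 2 and 3, against 1.89%, 2.10% and 1.67% at 6 weeks. Cd36 itself had 22.4, 85.9 and 131 FPKM in treated skin, against 29.8, 32.3 and 20.7 FPKM at 6 weeks. Treated replicate 1 lay inside the 6-week range, so the fold change of 1.2 ± 0.63 was not called (adjusted p = 0.261 with 6 and 0.149 with 12 libraries in limma), while without that library it was 1.93 and passed (adjusted p = 0.0139). Untreated 20-week skin had 23.2, 33.6 and 67.3 FPKM and normal skin 57.8 to 73.7 FPKM of Cd36. Acads, which oxidises short-chain fatty acids, had 9.56, 16.0 and 26.9 FPKM in treated skin, against 7.18, 6.69 and 6.54 FPKM at 6 weeks (1.13 ± 0.34, called higher). Ppargc1b, a coactivator of mitochondrial genes, had 1.86, 1.56 and 2.06 FPKM in treated skin, against 0.666, 0.668 and 0.812 FPKM at 6 weeks (0.72 ± 0.15, called higher). Cpt1a, the enzyme that admits long-chain fatty acids to mitochondria, was lower without overlap, with 25.9, 30.8 and 27.9 FPKM in treated skin against 31.8, 42.3 and 45.8 FPKM at 6 weeks, but was not called (-0.48 ± 0.16). It was called lower than in untreated 20-week skin (-0.68, adjusted p = 0.028 with 12 libraries in limma). Fabp5, the fatty acid binding protein of keratinocytes, was the member called lower, with 4179, 1736 and 701 FPKM in treated skin against 6379, 7782 and 6414 FPKM at 6 weeks (-1.99 ± 0.63). It made up most of the summed FPKM of the list at 6 weeks, so the lower sum rests largely on this gene.

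Glycolysis genes depended on treated replicate 1. Of 29 tested, 2 were higher and 0 lower without overlap and 1 was called higher. The median of -0.17 became 0.10 under the rescaling and -0.51 without that library, in which case 3 were called higher and 12 lower. Pfkfb3, which makes the activator of phosphofructokinase, had 19.9, 19.6 and 27.1 FPKM in treated skin, against 18.2, 17.8 and 14.7 FPKM at 6 weeks, without overlap and not called (0.36 ± 0.16). Ldha, the lactate-producing dehydrogenase of muscle and growing cells, had 651, 392 and 312 FPKM in treated skin, against 686, 671 and 648 FPKM at 6 weeks, so that replicate 1 touched the 6-week range. Ldhb, its counterpart in oxidative tissue, had 25.9, 72.9 and 70.1 FPKM in treated skin, against 20.4, 14.5 and 23.3 FPKM at 6 weeks, and was the member called higher (1.38 ± 0.43). Of 36 genes for mitochondrial respiration and the citric acid cycle, 3 were higher and 6 lower without overlap and 2 were called higher. Pcx, pyruvate carboxylase, had 13.6, 25.6 and 54.2 FPKM in treated skin, against 5.34, 5.62 and 5.84 FPKM at 6 weeks (2.08 ± 0.46, called higher). Of 19 hypoxia genes, 0 were higher and 4 lower without overlap and 2 were called lower; their median of -0.27 became 0.04 under the rescaling. Without treated replicate 1 the median was -0.59, with 0 called higher and 8 lower. Hif1a, the oxygen-regulated transcription factor, had 52.9, 34.0 and 27.7 FPKM in treated skin, against 65.0, 62.8 and 56.9 FPKM at 6 weeks (-0.72 ± 0.24, called lower).

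Caveolae are membrane pits coated with caveolin. All 9 tested genes had positive fold changes with a median of 0.41, but 1 was without overlap and 0 were called, while without treated replicate 1 the 6-library test called 6 higher. Cav1, their main coat protein, had 73.8, 174 and 208 FPKM in treated skin, against 99.4, 87.5 and 56.9 FPKM at 6 weeks (0.80 ± 0.43, and 1.26 without that library).

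**Figure D4:**
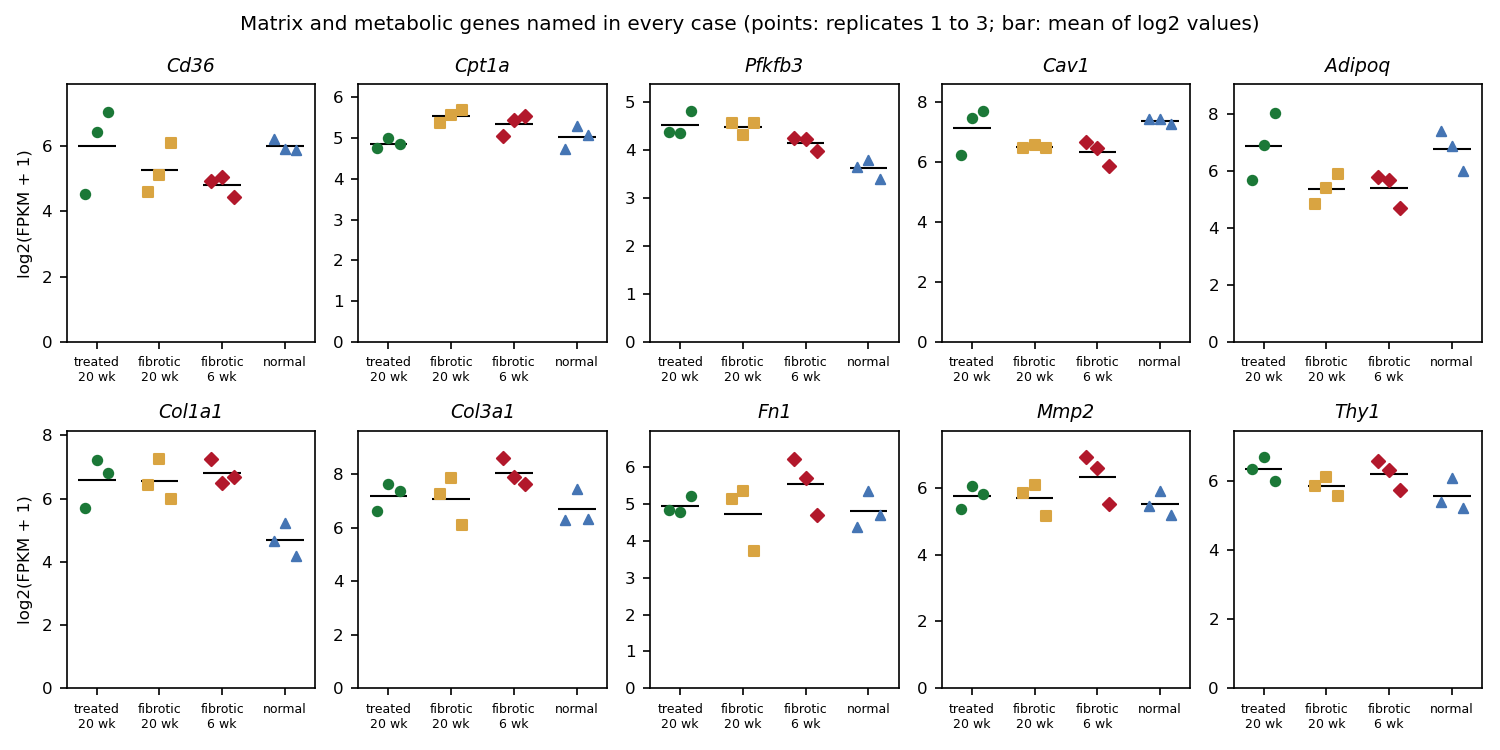
log2(FPKM + 1) (y axis, from 0) of 10 matrix and metabolic genes in each library, groups from left to right treated 20 weeks, fibrotic 20 weeks, fibrotic 6 weeks and normal; points are replicates 1 to 3 and bars the mean of the log2 values. Treated replicate 1 is the lowest treated library for Cd36, Cav1, Adipoq, Col1a1, Col3a1, Cpt1a and Mmp2. Treated and 6-week libraries do not overlap for Cpt1a, Pfkfb3 and Col3a1.

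Many fat and gland genes were higher in treated skin, mostly with the highest values in replicates 2 and 3. Of 23 tested adipocyte genes, 7 were higher (30.4%) and 1 lower (4.35%) without overlap, against 15.2% and 19.6% of all genes. Of the 23, 4 were called higher and 0 lower. The median was 1.38, or 2.09 without treated replicate 1, where 17 were called higher and 1 lower. The summed FPKM of the list overlapped, at 0.342%, 0.993% and 1.99% of the total in treated replicates 1, 2 and 3, against 0.748%, 0.899% and 0.477% at 6 weeks, and replicate 1 was below every 6-week library. Plin1, the coat protein of the adipocyte lipid droplet, had 10.7, 31.1 and 92.3 FPKM in treated skin, against 4.76, 5.75 and 2.89 FPKM at 6 weeks (2.62 ± 0.73, called higher). Cfd, an enzyme that fat secretes, had 340, 802 and 1945 FPKM in treated skin, against 209, 201 and 117 FPKM at 6 weeks (2.24 ± 0.63, called higher). Replicate 3 was the highest in both. Adipoq, the hormone adiponectin, had 50.2, 120 and 261 FPKM in treated skin, against 53.3, 50.5 and 24.9 FPKM at 6 weeks, where replicate 1 fell inside the 6-week range (1.49 ± 0.62, not called), while without that library the fold change was 2.09 and passed (adjusted p = 0.0269 in limma). Fabp4, abundant in fat but also made by endothelium and macrophages, had 613, 1789 and 2810 FPKM in treated skin, against 3347, 4936 and 1896 FPKM at 6 weeks. It made up most of the summed FPKM of the list at 6 weeks, so the overlap of the sums rests largely on this gene. Of 25 fatty acid and triglyceride synthesis genes, 8 were higher and 2 lower without overlap, 5 were called higher and 1 lower, and the median was 0.75. Without treated replicate 1 it was 1.13, with 14 called higher and 3 lower. Fasn, fatty acid synthase, had 32.2, 58.3 and 158 FPKM in treated skin, against 18.6, 20.7 and 15.9 FPKM at 6 weeks (1.82 ± 0.55, called higher).

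Of 21 tested sebaceous gland genes, 11 were higher (52.4%) and 0 lower without overlap, against 15.2% and 19.6% of all genes. Of the 21, 7 were called higher and 0 lower. Their median was 1.35, and 1.60 without treated replicate 1, where 15 were called higher and 1 lower. Awat1, which makes wax esters of sebum, had 8.08, 36.5 and 30.5 FPKM in treated skin, against 3.59, 1.11 and 0.906 FPKM at 6 weeks (3.06 ± 0.62, called higher). Scd1, the desaturase of fat and sebaceous glands, had 268, 1281 and 1602 FPKM in treated skin, against 186, 246 and 146 FPKM at 6 weeks (2.12 ± 0.69, called higher). Both were called higher than in untreated skin of 20 weeks too, Awat1 by 2.34 (adjusted p = 0.0395) and Scd1 by 1.98 (adjusted p = 0.0408, limma with all 12 libraries). Dgat2l6, a related acyltransferase, was called higher from a low level, with 1.39, 2.28 and 1.38 FPKM in treated skin against 0.295, 0.0437 and 0.255 FPKM at 6 weeks.

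Of 28 tested genes of the follicle, from its stem cells to the outer root sheath, 9 were higher and 1 lower without overlap, 8 were called higher and 1 lower, and the median was 0.77. Without treated replicate 1 it was 0.99, with 14 called higher and 1 lower. Sox9, a transcription factor of follicle stem cells, had 22.1, 22.5 and 29.6 FPKM in treated skin, against 14.8, 10.3 and 10.8 FPKM at 6 weeks (0.99 ± 0.18, called higher). Fgf18, which holds follicles in their resting phase, had 1.86, 7.33 and 6.31 FPKM in treated skin, against 0.586, 0.574 and 0.176 FPKM at 6 weeks (1.96 ± 0.43, called higher). Normal skin had 10.4 to 17.3 FPKM of Fgf18. Of 42 Wnt, BMP and hedgehog genes, 10 were higher (23.8%) and 2 lower (4.76%) without overlap, against 15.2% and 19.6% of all genes. Of the 42, 7 were called higher and 2 lower, and the median was 0.30. Bmp4, a growth factor of follicle mesenchyme, had 9.92, 9.02 and 13 FPKM in treated skin, against 4.88, 3.59 and 5.83 FPKM at 6 weeks, and Id3, a BMP target, had 39.8, 49.3 and 76.5 FPKM, against 20.1, 16.7 and 22.1 FPKM. Both were called higher (1.02 ± 0.20 and 1.40 ± 0.25), in sets of libraries that were well apart. Wnt5a, a Wnt ligand outside the beta-catenin branch, was called lower (-0.68 ± 0.16). Hair shaft genes, which mark growing hair, varied without order: of 66 tested, 0 were higher and 1 lower without overlap. They held 0.698%, 0.204% and 3.45% of the summed FPKM in treated replicates 1, 2 and 3, and 0.454% to 0.633% at 6 weeks.

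Skeletal muscle, which macrodissected skin can carry, differed between single libraries. Its 36 tested genes showed 0 without overlap in either direction, and held 0.0382%, 0.596% and 1.04% of the summed FPKM in treated skin and 0.361%, 0.0238% and 0.636% at 6 weeks. Among treated libraries the shares of muscle and fat genes had the same order, and at 6 weeks the opposite order. The part of muscle in the fat, gland and follicle results was not tested.

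The rule for naming genes took the 10 higher and 10 lower genes with the smallest p in the 6-library fit among those without overlap and with a mean of at least 5 FPKM in the higher group. None was called in that fit, at adjusted p-values of 0.1 to 0.112 (limma). All 20 were called with all 12 libraries, and in the 6-library test without treated replicate 1. Both fits reuse libraries by which the genes were selected, and the 12-library fit has the same fold changes. Those calls are therefore no independent support. Cyp2s1, an epithelial cytochrome P450 on chromosome 7, led the list. It had 12.7, 10.5 and 13.1 FPKM in treated skin, against 47.4, 54.5 and 39.9 FPKM at 6 weeks (-1.88 ± 0.15, adjusted p = 0.1 with 6 libraries and 0.000379 with 12). All treated libraries agreed closely, replicate 1 included. Untreated 20-week skin had 38.7, 40.2 and 38 FPKM of Cyp2s1 and normal skin 8.49 to 10.4 FPKM, and treated skin was called lower than untreated skin of its age (-1.62, adjusted p = 0.000824).

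Bag2, a partner of the chaperone HSP70, and the membrane protein Tmem86a showed that pattern as well. Bag2 had 4.81, 5.28 and 6.89 FPKM in treated skin, against 17.5, 18.1 and 12.5 FPKM at 6 weeks, and was called lower than in untreated 20-week skin, at -1.18 (adjusted p = 0.0125 in limma). Tmem86a had 23.6, 18.9 and 20.4 FPKM in treated skin, against 41.3, 53.8 and 40.5 FPKM at 6 weeks, and was -0.92 against untreated 20-week skin (adjusted p = 0.0144 in limma). Myl7, a myosin light chain best known from the heart atrium, had 0.736, 0.407 and 0.0607 FPKM in treated skin, against 12.7, 7.82 and 4.62 FPKM at 6 weeks. These genes were low in treated and in normal skin and high in both untreated fibrotic groups. In contrast, Esm1, Clec4n, Slamf9 and Mucl1 lay below every 6-week value in untreated 20-week skin too, where none was called against 6 weeks. Slamf9, a leukocyte receptor, had 2.61, 2.32 and 2.84 FPKM in treated skin, 1.80, 2.58 and 2.22 FPKM in untreated 20-week skin and 8.25, 5.49 and 6.41 FPKM at 6 weeks. Esm1, a proteoglycan of sprouting endothelium, had 0.712, 0.723 and 1.33 FPKM in treated skin, 3.99, 1.68 and 1.09 FPKM in untreated 20-week skin and 6.87, 6.26 and 4.24 FPKM at 6 weeks. Mucl1, a mucin-like secreted protein, had 0.976, 2.34 and 3.18 FPKM in treated skin, 0.707, 0.547 and 2.37 FPKM in untreated 20-week skin and 20.7, 12.4 and 11.5 FPKM at 6 weeks. In none of these 4 genes was treated skin called different from untreated skin of 20 weeks, with fold changes of -0.77 for Clec4n, -0.67 for Esm1, 0.17 for Slamf9 and 0.54 for Mucl1. The call of Mucl1 against 6 weeks was lost when treated replicate 1 was left out of the 12-library fit (adjusted p = 0.0555 in limma).

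**Figure D5:**
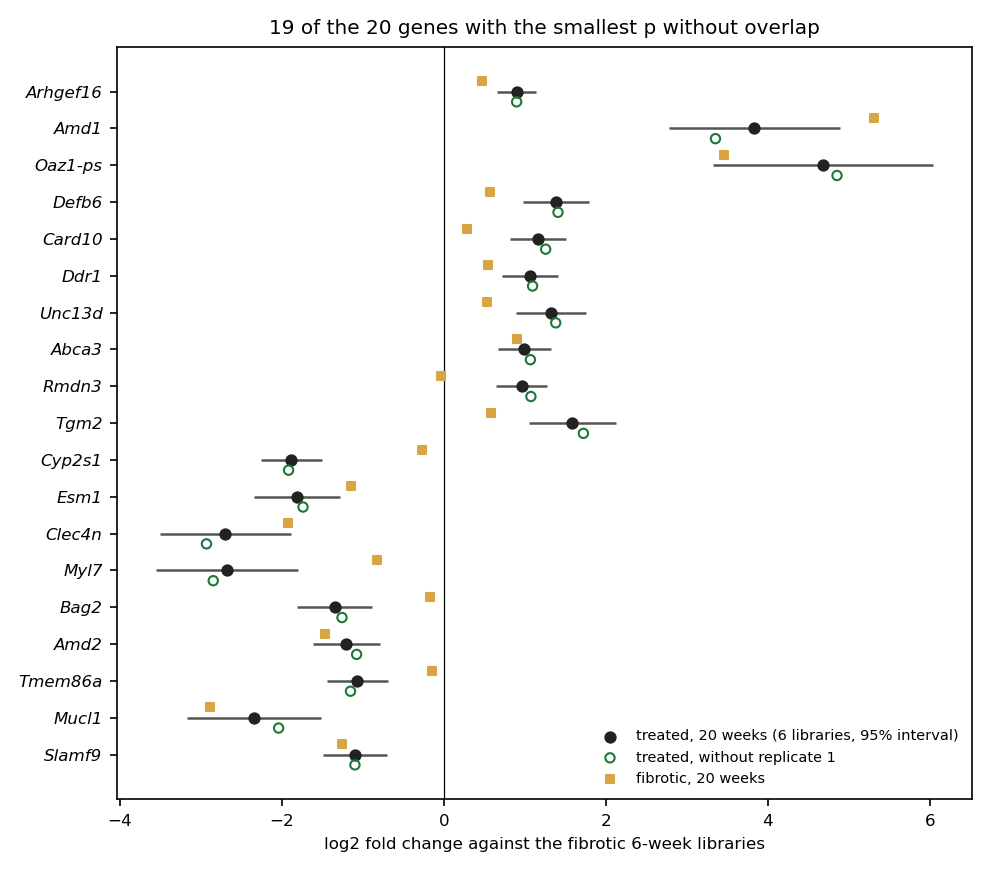
log2 fold change against the 6-week libraries (x axis) of 19 of the 20 genes named by rule (y axis): black points with 95% intervals for treated skin in the 6-library fit, open green circles without treated replicate 1, and yellow squares for untreated fibrotic skin of 20 weeks. For Cyp2s1, Bag2, Tmem86a, Card10 and Rmdn3 the squares lie near 0. In every gene shown except Rmdn3 the square lies on the side of the treated point, Clec4n, Mucl1, Slamf9, Abca3 and Amd1 among them.

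Among the genes that were higher, Arhgef16 had 6.95, 6.97 and 6.94 FPKM in treated skin, against 3.12, 3.16 and 3.52 FPKM at 6 weeks (0.90 ± 0.10). Ddr1, a receptor kinase that collagen activates, had 61.3, 56.9 and 76.5 FPKM in treated skin, against 30.0, 28.4 and 32.8 FPKM at 6 weeks (1.06 ± 0.14). Tgm2, the transglutaminase that crosslinks matrix proteins, had 24.4, 27.0 and 39.8 FPKM in treated skin, against 11.4, 8.40 and 8.17 FPKM at 6 weeks (1.59 ± 0.22). Each pair of sets was well apart and replicate 1 stood with the other treated libraries. Card10, a scaffold of NF-kappaB signalling, had 10.4, 11.6 and 14.2 FPKM in treated skin, against 5.33, 4.61 and 4.43 FPKM at 6 weeks (1.17 ± 0.14). Rmdn3, which tethers mitochondria to the endoplasmic reticulum, had 19.4, 23.6 and 26.4 FPKM in treated skin, against 11.1, 11.5 and 11.3 FPKM at 6 weeks (0.96 ± 0.13). Untreated 20-week skin stayed at 9.39 to 12.2 FPKM of Rmdn3 and was called lower than treated skin, which was 0.99 higher (adjusted p = 0.0163 in limma with all 12 libraries). Unc13d, which primes granules for release, was 1.33 ± 0.18 higher. Abca3, a lipid transporter, was 1 ± 0.14 higher than at 6 weeks but 0.10 from untreated 20-week skin.

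Some of the 20 genes have near-identical copies. Amd1 and Amd2 are near-identical genes of polyamine synthesis on chromosome 10, and Oaz1-ps is a pseudogene of the polyamine regulator Oaz1. Amd1 had 27.4, 12.2 and 7.24 FPKM in treated skin, against 0.0137, 0.0286 and 0.0221 FPKM at 6 weeks, while Amd2 had 26.2, 40.1 and 29.5 FPKM, against 74.3, 75.9 and 70.8 FPKM. The copies thus differed in opposite directions, and Amd1 was also high in untreated 20-week skin, at 17.6 to 66.3 FPKM. Oaz1-ps had 45.9, 51.1 and 86.0 FPKM in treated skin, against 3.21, 0.000349 and 1.99 FPKM at 6 weeks, while Oaz1 overlapped at 246 to 267 FPKM in treated and 244 to 263 FPKM in 6-week skin. The 12-library call of Amd2 was lost under rescaled totals (-0.88, adjusted p = 0.0581 in limma). How reads were divided between such copies is not given in the sources used here, so these values are uncertain. The same holds for the Sprr2 and stefin genes of the wound list.

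Of 21 genes of the NRF2 antioxidant response, 3 were higher (14.3%) and 8 lower (38.1%) without overlap, against 15.2% and 19.6% of all genes. Of the 21, 3 were called higher and 7 lower, with a median of -0.09 that became 0.22 under the rescaling. Without treated replicate 1 the median was 0.01, with 6 called higher and 7 lower. Gsta4, a glutathione transferase for lipid aldehydes, had 11.7, 22.4 and 17.0 FPKM in treated skin, against 179, 293 and 51.0 FPKM at 6 weeks (-3 ± 0.64, called lower). Hmox1, which degrades haem, had 63.8, 39.9 and 31.0 FPKM in treated skin, against 120, 170 and 84.3 FPKM at 6 weeks (-1.46 ± 0.35, called lower). Tkt, an enzyme of the pentose phosphate path, was called higher instead (1.02 ± 0.27). Of 20 T and NK cell genes, 3 were higher (15%) and 2 lower (10%) without overlap, near or below the 15.2% and 19.6% of all genes. The fit of all 12 libraries called 4 higher and 2 lower. Without treated replicate 1 the 6-library test called 2 higher and 1 lower. Nkg7, a granule protein of cytotoxic lymphocytes, had 27.7, 10.2 and 7.32 FPKM in treated skin, against 2.32, 3.09 and 3.02 FPKM at 6 weeks (1.87 ± 0.45, called higher). Untreated 20-week skin, at 15.4 to 19.6 FPKM, was as high in Nkg7 as treated skin within its range. Cd4, the co-receptor of helper T cells, had 0.709, 2.17 and 1.99 FPKM in treated skin, against 4.12, 6.40 and 2.50 FPKM at 6 weeks (-1.01 ± 0.36, called lower). Of 23 blood endothelial genes, 1 was higher without overlap and 0 were called, while without treated replicate 1 the 6-library test called 17 higher and 0 lower. Pdpn, a marker of lymphatic endothelium that activated fibroblasts and keratinocytes also make, had 13.6, 10.4 and 7.07 FPKM in treated skin, against 39.7, 32.6 and 19.9 FPKM at 6 weeks (-1.47 ± 0.32, called lower). Of 44 tested cell cycle genes, 1 was higher and 4 lower without overlap and 1 was called lower, with a median of -0.38, or 5 called lower and a median of -0.58 without treated replicate 1.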

How the data were processed

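Paired-end reads of 101 cycles came from a stranded, poly-A selected library per skin sample, per the labels' protocols. The authors deposited 1 table of FPKM values; the submitters' processing notes name the build mm10 and the tools Cufflinks 2.2.1, TopHat2 2.0.13 and Bowtie2 2.2.3. They also name cutadapt 1.7.1, R 3.1.1, SAMtools 1.0 and FastQC 0.11.2. What each tool did, which annotation was used and whether libraries were scaled to each other is not given in the sources used here. Read numbers were not used, so depth is unknown and detection limits are left out. No pool or date is tied to a library, so no batch was tested.

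Values of genes that reached 1 FPKM in 3 or more of the 6 libraries were analysed as log2(FPKM + 1) in limma 3.58.1 under R 4.3.3 with an intensity trend, 2-sided, with Benjamini-Hochberg adjustment over all genes. Alternatives were a pseudocount of 0.1, no filter or one at a mean of 5 FPKM, median-of-ratios scaling, rescaled totals, a fit of all 12 libraries, a variance weight per group, a replicate block, leaving out each library, and limma's treat against a 1.2-fold change. The scripts were tested on simulated data. Of 793 short RNAs in the table, 24 were tested. The 11 genes listed at 0 in some libraries and at 10 FPKM or more in all others, Krt1, Krt10 and Hrnr among them, stayed out of the 43 list counts.

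Named genes are 10 fixed ones (Adipoq, Cav1, Cd36, Col1a1, Col3a1, Cpt1a, Fn1, Mmp2, Pfkfb3, Thy1) and, as fewer than 20 were called, the 10 higher and 10 lower with the smallest p. All other genes in the text were chosen after their values were seen. The members and lists were chosen with earlier results of these data known. One of the 20 is not reported here.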

Additional observations from a re-analysis of the deposited data

How the results depend on the processing

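The number of genes called depended on the libraries that set the spread. With the 6 libraries, 1 gene was called (0 higher, 1 lower, 1 of at least 2-fold), and this held for the other pseudocount, no filter, the filter at a mean of 5 FPKM, the median of ratios, the variance weights and the treat test. Leaving out each library in turn gave 1 to 4025 called genes, 0 to 1853 higher, 1 to 2172 lower and 1 to 1281 of at least 2-fold, the upper values all without treated replicate 1. The fit of all 12 libraries called 2218 (998 higher, 1220 lower, 517 of at least 2-fold). Rescaled totals called 0 and leaving out short RNAs called 0, with 4146 and 3687 genes at an unadjusted p under 0.05. Leaving out short RNAs was chosen after seeing the data, as were 3 variants of the 12-library fit. Of these, the fit without treated replicate 1 called 5271 (2411 higher, 2860 lower, 1340 of at least 2-fold), with scaling by the median of ratios 2251 (1090 higher, 1161 lower, 505 of at least 2-fold), and with rescaled totals 3782 (3305 higher, 477 lower, 846 of at least 2-fold). The cause of these differences was not tested. The replicate number as a block gave 1 called gene. The deviations of same-numbered treated and 6-week libraries correlated at -0.20, -0.08 and 0.17, so the numbers were not taken as a pairing. Over the left-out libraries Thy1 ranged from -0.11 to 0.32, with -0.04 without treated replicate 2 and -0.11 without 6-week replicate 3. Col1a1 became 0.10 under rescaled totals, with 6 or 12 libraries, and 0.22 without treated replicate 1, in either fit; over the left-out libraries it ranged from -0.55 to 0.22. Over the 30 named genes and 19 alternatives, 453 values kept direction and side of the threshold, 107 passed it in addition and 6 changed sign. The unknown depth limits what can be said of genes near 0.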

Other observations

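Some smaller groups of genes are given as values. Of 8 tested mast cell genes, 0 were without overlap, and the median fold change of 0.70 became 1.19 without treated replicate 1, where the 6-library test called 5 higher. Of 11 Schwann cell and nerve genes, 2 were higher without overlap and 1 was called higher with all 12 libraries, which was Egr2 (1.06 ± 0.22), a transcription factor of myelination that other cells also induce. Igj, the joining chain of secreted antibodies, had 5.26, 4.22 and 1.14 FPKM in treated skin, against 0.180, 0.220 and 0.624 FPKM at 6 weeks, and 1.99, 2.70 and 4.91 FPKM in untreated 20-week skin. It was the 1 of 4 tested B and plasma cell genes called higher (1.63 ± 0.42). Of 18 MHC class II and dendritic cell genes, 2 were higher and 4 lower without overlap and 2 were called lower, the co-stimulators Cd80 (-1.42 ± 0.45) and Cd86 (-0.90 ± 0.25). Of 21 p53 and senescence genes, 1 was higher and 5 lower without overlap, with 1 called higher and 3 lower. Of 13 genes of the EGF family and its receptors, 1 was higher and 1 lower without overlap and 2 were called lower, Ereg and Hbegf. Of 23 cholesterol synthesis genes, 3 were higher and 2 lower without overlap and 0 were called (limma with 12 libraries), with 3 higher and 2 lower at an unadjusted p under 0.05 in the 6-library fit. Without treated replicate 1 the 6-library test called 3 higher and 5 lower. Of 14 inner root sheath genes, 0 were higher and 2 lower without overlap and 2 were called lower, Tgm3 (-1.86 ± 0.33) and Ctsc (-1.31 ± 0.36). The summed FPKM of that list overlapped, at 0.351%, 0.0822% and 0.763% of the total in treated replicates 1, 2 and 3. At 6 weeks it was 0.166% to 0.307%. Of 6 lymphatic genes 1 was called lower and 0 higher. For the 6 melanocyte and 4 red blood cell genes tested, 0 were called in either direction with all 12 libraries, and 1 melanocyte and 0 red blood cell genes had an unadjusted p under 0.05 in the 6-library fit.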
